A study of Rattus norvegicus with 35 samples.

Results

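Of 34 single rat cells profiled by RNA sequencing, 19 formed the gene-rich hypoblast cells described here. The cells were chosen by measured values of these data: a cell was taken when at least 4000 transcript records had a read and when Gata6 or Gata4 reached 5 CPM, counts per 1e6 reads of its library. The other 15 single cells and 1 bulk population library were not members. All cells, members or not, were converted hypoblast stem cells made from rat embryonic stem cells under LIF, PDGF and EGF with 2% fetal bovine serum, and were taken on day 12 of differentiation. No allele, transgene, strain, sex or culture number is given, so the 19 cells are 1 sample of 1 culture condition. The SDs and coefficients of variation given for them show the spread between cells and not between cultures, and nothing was tested.

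The hypoblast, or primitive endoderm, is the epithelium that lines the cavity side of the early embryo and gives rise to the endoderm of the parietal and visceral yolk sac. Its identity rests on the zinc finger factors Gata6 and Gata4, which switch on genes for laminin and type IV collagen, the scaffold of basement membranes, and for endocytosis, through which yolk sac endoderm takes up nutrients. Parietal endoderm secretes a thick basement membrane, whereas visceral endoderm makes apolipoproteins and other serum proteins. A cell that divides and secretes protein at a high rate also carries a large translation, folding and degradation machinery, whose genes are expressed in nearly every cell type.

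The 19 cells held 95359 to 379141 reads in genes, with a median of 301398, and 4028 to 5514 records with a read (median 4603). The other 15 cells held 6288 to 503044 reads and 349 to 3976 records. The number of records was what chose the cells and is given as a description. Just inside the limit was C46 with 4028 records, followed by C33 with 4255, and just outside it was C10 with 3976, which held Gata6 at 993 CPM. Deeper cells did not always hold more records: C74 and C95, outside the group, held 431709 and 450250 reads but 1556 and 1642 records. When cells were thinned at random to the 95359 reads of the shallowest member, the members held 3718 to 4902 records (median 4193). The 8 other cells deep enough to be thinned held 1315 to 3429 (median 1809), and 7 were too shallow.

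**Figure D1:**
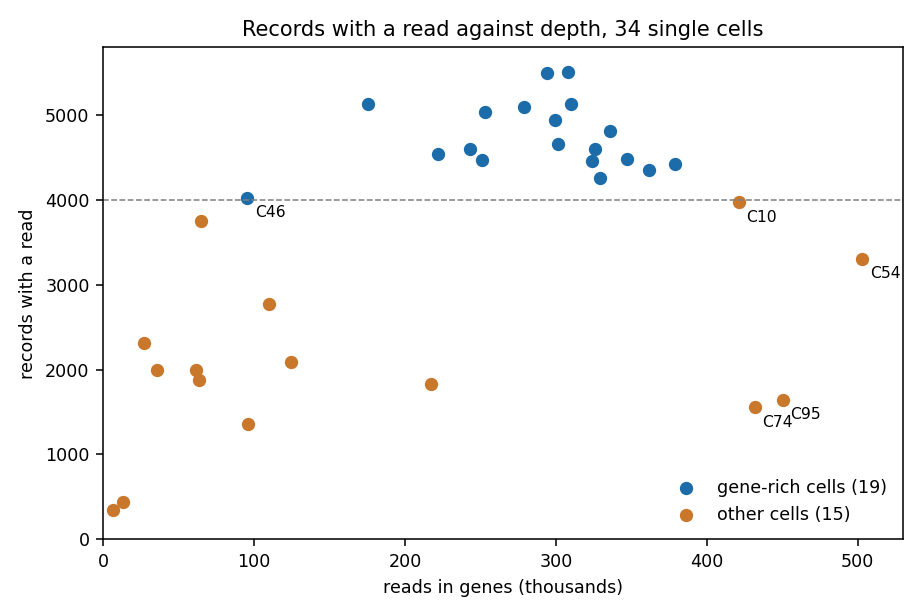
Number of records with a read (vertical axis) against reads in genes in units of 1000 (horizontal axis) for each of the 34 single cells, with the limit of 4000 records as a dashed line. The 19 gene-rich cells lie between 4028 and 5514 records, and the deepest cells, C54, C95 and C74, lie below the limit.

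C46 stood apart from the other 18 cells. It was the shallowest, at 95359 reads, so a single read there was worth 10.5 CPM. It held 2 reads of Gata6, 0 of Gata4 and 2 of Dab2, and it was the only member with Col1a2, a fibrillar collagen gene of fibroblasts, with 24 reads (252 CPM). It also held the highest Vim level, 1510.1 CPM, and was the 1 member with S100a4, a mesenchymal marker, at 902 CPM. Its entry into the group rests on those 2 reads of Gata6. Some values that rest on C46 are given with and without it, while other ranges over the 19 cells include it. Hsp90ab1, for example, was lowest there at 2632 CPM, and its lowest value without C46 was 5586 CPM. The fibroblast genes Col1a1, Col3a1 and Dcn had 0 reads in C46, as in all members. The part of depth in these values was not tested.

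The 4 markers of the label were present in most cells. Gata6 ranged from 0 CPM in C40 to 588 CPM in C26, with a median of 274, and reached 5 CPM in 18 cells. Gata4 ranged from 0 in C46 to 757 CPM in C26, with a median of 289, and also reached 5 CPM in 18 cells. Both factors reached it in 17 cells. C40 had no Gata6 read and Gata4 at 289 CPM, and C33 was low in both, at 30.4 and 48.6 CPM. These 2 genes were used by the rule, so a member without one had to hold the other. Lama1, which encodes the laminin alpha chain of embryonic basement membranes, was found in every cell, at 126 CPM in C46 and 775 to 6908 CPM in the other 18, with a median of 2924 CPM over the 19. Dab2, an adaptor for endocytosis of lipoprotein receptors, was found in 18 cells at up to 1354 CPM, with a median of 299 and no read in C24. All 4 markers reached 5 CPM in 16 cells and 3 of them did in the other 3 cells (C24, C40 and C46).

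Across all rows, the cells shared a small core and a long tail. Of the 17201 records in the table, 10262 had a read in at least 1 of the 19 cells, 1387 of them in exactly 1 cell, and 6939 had none. Records at 5 CPM or more in every cell numbered 865, or 8.43% of those with a read and 5.03% of the table. Records at that level in at least 10 of the cells numbered 4161, or 40.5% and 24.2%. In no cell at that level were 475 of the records with a read (4.63%) and 7414 of the table (43.1%). The 865 shared records held 50.9% to 62.3% of each cell's reads, with a median of 55.7%. C46 held the highest share, and without it the range ended at 58.9%. Leaving C46 out raised the number of shared records to 964, since 99 records were missed in that cell alone. In the other 15 cells between 139 and 813 of the 865 records were detected, a difference that the rule builds in.

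Records of actin, cathepsin L and chaperone genes were among those that drew the most reads. Levels between genes are compared here in CPM and not per length, because transcript lengths were not used here, so a long transcript counts for more. The 100 records with the highest means took 26.4% to 37.9% of a cell's reads, and 93 of them were detected in every cell. Actb, cytoplasmic beta-actin, held 10043 to 27690 CPM with a median of 15583 and a mean of 17076 ± 5859 (SD over the 19 cells). Ctsl, which encodes the lysosomal protease cathepsin L, was as high on average, at 16821 CPM, but ranged from 357 CPM in C46 to 47242 in C33. Without C46 its lowest value was 3128 CPM in C72, so the 18 cells still spanned a wide range. Hsp90ab1, the constitutive cytosolic HSP90 chaperone, held 2632 to 20799 CPM.

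The other leading records were of several kinds. Those of protein synthesis and folding included Eef1a1, which brings aminoacyl-tRNA to the ribosome (median 7726 CPM), Rplp0 of the ribosomal stalk (6519), Rpl3 (4662) and Rps6 (3845), and the HSP70 chaperone gene Hspa8 (5386). Ubb, a gene for ubiquitin, the tag for protein breakdown, had a median of 7164 CPM and Actg1, cytoplasmic gamma-actin, 6049.6. The actin genes share nearly the same coding sequence, and the handling of reads that fit several genes is not given in the sources used here, so the division between them is uncertain. Ftl1, the ferritin light chain, had a median of 6994 CPM, Selenow, a small selenoprotein, 4418, and Slc44a1, a choline transporter, 3738. Rn45s, the ribosomal RNA precursor, took 0.434% to 1.63% of a cell's reads. Sparc, a matrix glycoprotein of parietal endoderm, ranked 17 with a median of 3687 CPM, from 273 in C46 to 8915 in C80. Zwint, a kinetochore protein, ranked 20 with a median of 3013 CPM. Ripor2 ranked 5 by mean at 8413 ± 3399 CPM and was found in every cell, but its level followed that of Ftl1. Ripor2 and Ftl1 held 2884 and 2087 CPM in C46, the lowest cell of both, and 14011 and 11001 in C38, the highest. Whether they share reads was not tested, so the Ripor2 level is uncertain. Of the 20 records, 1 had no matched symbol.

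**Figure D2:**
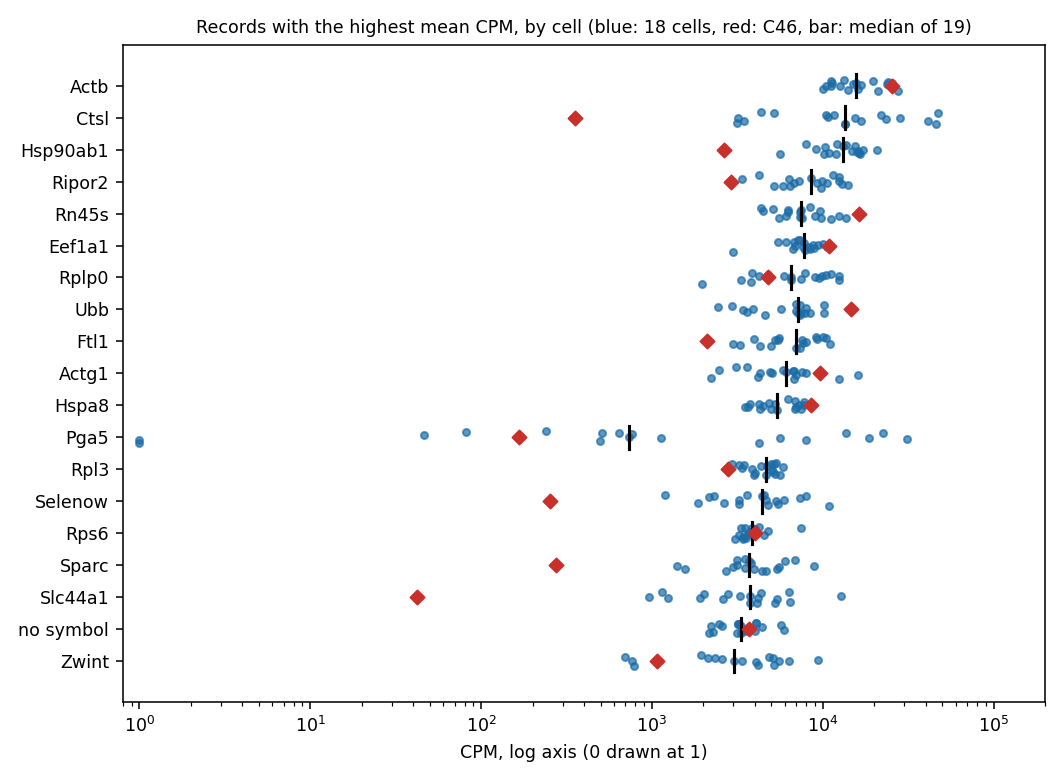
CPM on a log axis of 19 of the 20 records with the highest means, one row per record, with a point for each of 18 cells, a red diamond for C46 and a bar at the median of the 19. Actb, Eef1a1, Hspa8, Rpl3 and Rps6 form tight groups, Ctsl and Pga5 spread widely, and C46 lies below all other cells for Ctsl, Sparc, Selenow and Slc44a1.

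Pga5, annotated as the pepsinogen gene of gastric chief cells, was the exception among the 20. It ranked 13 by mean, at 5721 CPM, but its median was 736 CPM, it had no read in C40 and C72, and it reached 31274 CPM in C26. A mean over cells therefore does not describe it. Ranked by the median, the leading 100 records still included 93 of those ranked by the mean.

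Taken gene by gene, ribosomal protein genes were the most constant of the 34 lists. Constancy was measured as the coefficient of variation of CPM over the 19 cells, the SD divided by the mean, among 860 records detected in every cell whose mean reached 50 CPM. Among the lowest values were those of Rpl3 (0.21), Rpl4 (0.22) and Rpl18 (0.22). Rpl3 lay between 2800 and 5824 CPM in all 19 cells, with a median of 4662. Rpl18 lay between 399 and 843 CPM with a median of 575, so a gene with fewer reads was as steady. Of the 20 most constant records, 14 were ribosomal protein genes, among them also Rps6, Rpl14, Rps16, Rpl8, Rps3a, Rpl7, Rps18, Rplp1 and Rpl23.

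The others among the 20 were few. Eef1a1 ranked 6, at 0.24, with 2966 to 10833 CPM. Gapdh, a glycolytic enzyme often used as a reference gene, ranked 10, at 0.26, with 398 to 1116 CPM. Ywhae, a 14-3-3 adaptor for phosphorylated proteins, had 0.27, and Hspa8 0.28. A further 2 records had no matched symbol. Actb, another common reference gene, was at rank 44 with 0.34, and Hsp90ab1 at rank 47 with 0.35.

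Of the 75 ribosomal protein genes in the table, 70 were detected in every cell, against 5.03% of all records, and all 75 in at least 10 cells, against 24.2%. Their means ran from 18.9 to 7144 CPM. The median coefficient of variation of the list was 0.41, against 0.63 over the 865 shared records and 1.98 over all records with a read. Spread falls with level, so the same comparison was made between records of like level. Among shared records with means of 200 to 500 CPM, 24 ribosomal genes had a median of 0.39 and 310 other records 0.66. From 1000 to 2000 CPM the medians were 0.28 for 10 genes and 0.47 for 60, and from 50 to 100 CPM they were 0.55 for 8 and 0.73 for 68. The ribosomal median was the lower one in all 6 ranges of level that held such genes, with C46 and without it. The list held 70 of the 860 ranked records and made up 36 of the 100 most constant. When C46 was left out, it made up 42 of the 100.

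The list was not uniform. Rpl32 (1.10), Rps13 (1.07), Rpl35a (1.05) and Rps2 (1.04) had the widest spread, a choice made after their values were seen. C46 was the highest cell for each of them and held Rpl32 at 996 CPM against a median of 136 and Rps2 at 1719.8 against 270.6. Without C46 no ribosomal gene exceeded 1, and Rpl32 had 0.37. C46 was the highest cell for 26 of the 75 genes and for 155 of all 865 shared records. Ribosomal protein genes have many processed copies in mammalian genomes, and how reads were shared with these is not given in the sources used here.

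**Figure D3:**
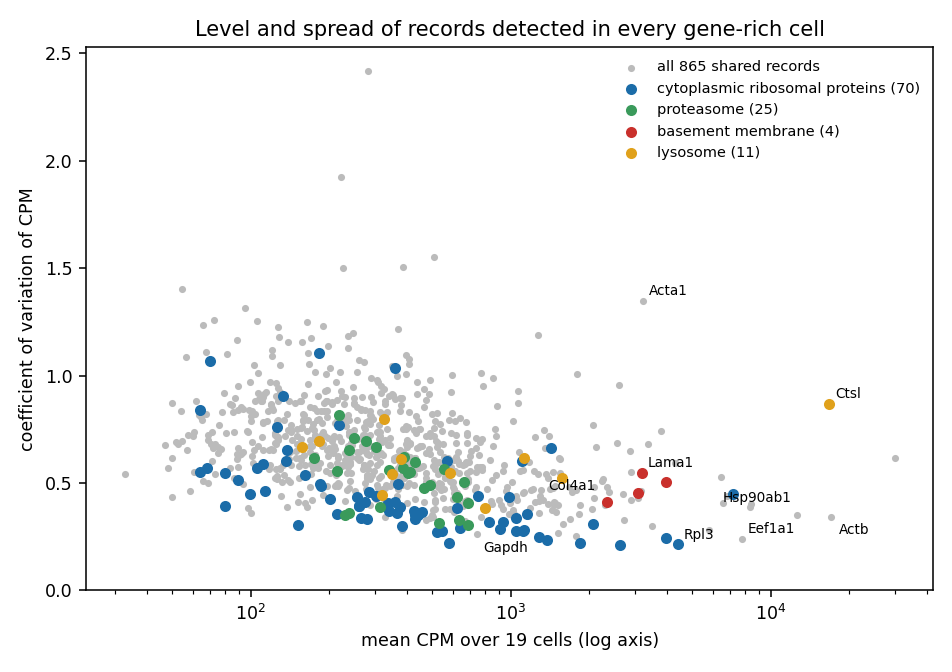
Coefficient of variation of CPM over 19 cells (vertical axis) against mean CPM (log horizontal axis) for the 865 records detected in every gene-rich cell, with 4 gene lists in colour. Most ribosomal protein genes lie along the lower edge, 3 of them lie above 1, Col4a1 and Lama1 lie at 0.41 and 0.55, and Ctsl lies far above other records of its level at 0.87.

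Ribosomal protein mRNAs are known to begin with a C followed by a run of pyrimidines, which ties their translation to growth signals, and the sequences at their start sites are shown because this group led the ranking. RefSeq promoters of build GRCr8 were matched for 59 of the 75 genes, while the counts rest on build rn5. Each line gives 15 bases on either side of the annotated start, 5′ to 3′ on the strand of the gene, for the 10 most constant ribosomal genes with an entry, followed by Lama1 and Ctsl for contrast, with the motif CTTT in capitals.
Rpl3 (chr7:113507976-113508005, minus strand): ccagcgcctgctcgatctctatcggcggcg
Rpl4 (chr8:73566462-73566491, plus strand): taagttcttcCTTTtcctgtgggagcagcc
Rpl18 (chr1:105325255-105325284, plus strand): tctggacctggtctagcaggaggcgccatc
Rps6 (chr5:106420526-106420555, minus strand): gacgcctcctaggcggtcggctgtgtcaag
Rpl14 (chr8:129163605-129163634, plus strand): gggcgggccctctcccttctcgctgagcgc
Rps16 (chr1:92770643-92770672, plus strand): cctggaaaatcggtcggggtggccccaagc
Rps3a (chr2:173827028-173827057, minus strand): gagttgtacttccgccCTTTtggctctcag
Rps18 (chr20:4933730-4933759, plus strand): cacgtcacttccgctctctcttccacagga
Rplp1 (chr8:71290858-71290887, minus strand): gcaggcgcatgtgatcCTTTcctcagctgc
Rpl23 (chr10:83272170-83272199, minus strand): actaacttcCTTTctgactCTTTccggacg
Lama1 (chr9:115139533-115139562, plus strand): gactctgtcctgactatatttctgcgacag
Ctsl (chr17:770089-770118, plus strand): ttccagattctcggacctcggcgacctccg

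The letters CTTT stood in this window in 38 of the 59 ribosomal genes (64.4%), against 11.8% of 27457 promoters in the whole table. On the other strand, as AAAG, they stood in 2 of the 59 (3.39%), against 11.8%. Among the shared records with a promoter the share was 14.9%, among translation factors 20.6% (7 of 34) and among basement membrane genes 0 of 8. Of the 100 most constant records, those that were not ribosomal protein genes had it in 6 of 47 (12.8%). Rpl3, Rpl18, Rps6, Rpl14, Rps16 and Rps18 lacked CTTT, so the most constant genes of the list were divided for these letters. A gene without CTTT can still hold a run of pyrimidines, as the windows of Rpl14 and Rps18 do. Runs other than CTTT were not counted. A match to CTTT is a description of letters around an annotated start, which can lie several bases from the start used in these cells.

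Translation factor and proteasome genes were also widely shared. The counts in this paragraph stand against 5.03% of all records in every cell and 24.2% in at least 10. Of 39 translation factor genes, 31 were detected in every cell and all in at least 10, with a median of their means of 447 CPM against 24.5 CPM over all records with a read. Eef2, which moves the ribosome along the mRNA, had a median of 2790 CPM, and Eif5a, which eases stalled elongation, 2318 CPM. Of 32 proteasome genes, 25 were detected in every cell and all in at least 10. Psmb4, a core subunit, held 231 to 1008 CPM with a median of 752 (coefficient of variation 0.30), and Psma7 374 to 1529.5 CPM. For ubiquitin and SUMO genes the number was 13 of 21, among them Skp1, a part of ubiquitin ligases (median 1519 CPM). RNA binding and splicing genes had 32 of 49, including Npm1 and Ncl, both of the nucleolus (1769 and 1250.4 CPM), the splicing regulator Srsf3 (1969.9) and the steadiest of the list, Sf3b1, a spliceosome subunit (783 CPM, coefficient of variation 0.34). Nuclear transport genes had 5 of 15, with the small GTPase gene Ran at 1110.2 to 4436 CPM.

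Of 29 cytosolic chaperone genes, 18 were detected in every cell, where 5.03% of all records were. Hsp90aa1, the inducible HSP90, had a median of 1566 CPM against 13118 CPM for Hsp90ab1. Of 33 genes of the endoplasmic reticulum, 20 were in every cell and all 33 in at least 10, where 24.2% of all records were. Ssr3, of the translocon-associated complex, had a median of 3082 CPM, Hspa5, its HSP70 chaperone, 2325 CPM, and P4hb, a disulfide isomerase that is also a subunit of collagen prolyl hydroxylase, 1886 CPM. Vesicle traffic genes reached every cell for 10 of 36 but at least 10 cells for 32 of 36, with Arf4 at a median of 975 CPM and Tmed10 at 1054 CPM. Of 30 lysosomal genes, 11 were in every cell, again against 5.03%. Ctsz (1419.5 CPM) and Ctsb (1137 CPM), both cathepsins, followed Ctsl, and Atp6v0c, a proton pump subunit, was the steadiest at 0.38.

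Detection of energy metabolism genes at 5 CPM differed by pathway. Of all records, 5.03% were in every cell and 24.2% in at least 10. Nuclear genes of oxidative phosphorylation were detected in every cell for 36 of 49, led by the ATP synthase genes Atp5pb (median 2712 CPM) and Atp5f1b (1409 CPM), and the steadiest was Cox6c, a cytochrome oxidase subunit with only 97.8 CPM on average. Mitochondrial ribosome genes were found in at least 10 cells for 37 of 38 but in every cell for 12, at a median of their means of 81.7 CPM, with Mrpl17 at a median of 479.9 CPM. Of 19 glycolysis genes, 8 were in every cell, led by Ldha, lactate dehydrogenase (1553 CPM), Aldoa (1211 CPM) and Pgk1 (873 CPM). Cholesterol and fatty acid synthesis genes reached every cell for 3 of 28 and at least 10 cells for 22. Scd2, a fatty acid desaturase, ranged up to 4224 CPM, and Srebf2, the master regulator of cholesterol genes, up to 406 CPM. Both were lowest in C46, with 2 reads each.

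In every cell were 15 of 32 actin cytoskeleton genes and 10 of 18 tubulin and microtubule genes, against 5.03% of all records. Anxa2, a membrane and actin binding annexin, had a median of 814 CPM, Tuba1c 3335 CPM and Tubb5 1248 CPM. Dynll1, a light chain of dynein, was the steadiest of the microtubule list, at 0.34. Of 12 genes for 14-3-3 proteins and phosphatase subunits, 8 were in every cell, and Ywhaz ranged from 541 to 3188 CPM. In all, 10 of the 34 lists had at least 50% of their records in every cell, and 9 lists had none.

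**Figure D4:**
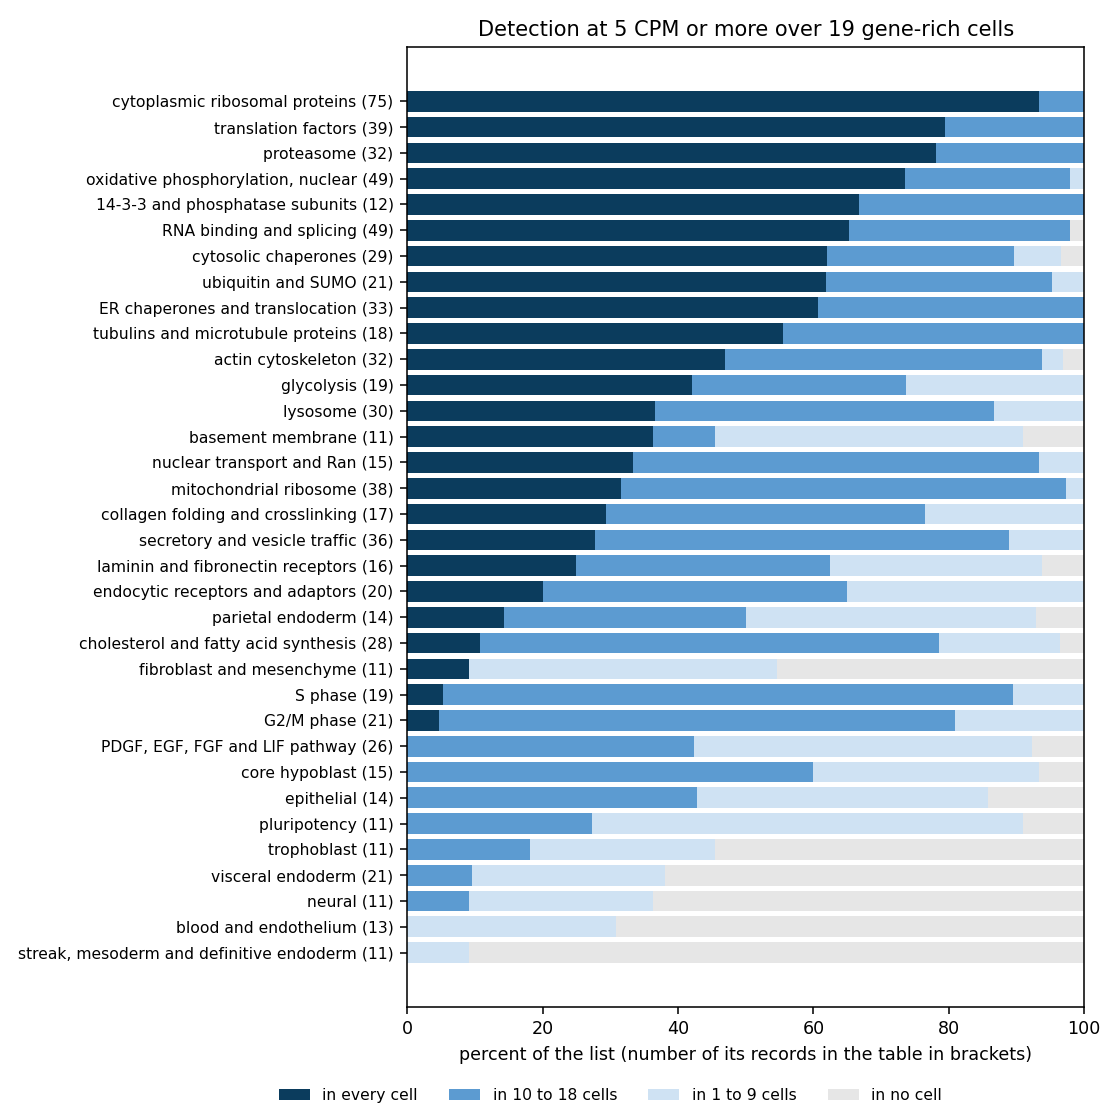
Share of each of 34 gene lists, in percent of its records in the table, detected at 5 CPM or more in every gene-rich cell, in 10 to 18 cells, in 1 to 9 cells or in none. Ribosomal protein genes stand at the top with 70 of 75 in every cell, while 10 of 11 genes of the streak, mesoderm and definitive endoderm list were detected in no cell, against 43.1% of all records.

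Of 18 basement membrane genes listed, 11 had a record under their symbol in the table, and the rest could not be counted. Of these 11, 4 were in every cell, against 5.03% of all records, and most of the others in few. Sparc, Lama1, Lamc1 and Col4a1 were each detected in all 19 cells, and Fbln1, a fibulin, in 16, while the remaining 6 of 11 genes were found in 6 cells or fewer, or in none for Lama5. Lamc1, the laminin gamma chain, ranged from 241 CPM in C46 to 5001 in C37, with a median of 2957. Col4a1, a type IV collagen chain, ranged from 2 reads in C46 to 4409 CPM in C37, with a median of 2178 CPM, and had the lowest coefficient of variation of the list, 0.41. C46 lay under every other cell for all 4 genes. Together the list took 0.0734% of the reads of C46 and 0.567% to 2.24% in the other 18 cells. Of 17 genes that fold and link collagen, 5 were in every cell and 13 in at least 10, against 24.2% of all records. Pxdn, a peroxidasin that crosslinks type IV collagen, ranged from 129 to 2595 CPM, Colgalt1, a collagen galactosyltransferase, from 105 to 1791 CPM, and Ppib, a prolyl isomerase, was the steadiest at 0.38.

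Receptors and uptake genes were shared for a few members of each list, while 5.03% of all records were in every cell. Of 16 receptors and adhesion partners of laminin and fibronectin, 4 were in every cell: Rpsa, a ribosomal protein also described as a laminin receptor (median 1169 CPM), Vcl, or vinculin (530.3 CPM), Sdc4, a syndecan (398 CPM), and the beta-1 integrin Itgb1, at a mean of 296 CPM. Endocytic genes were in every cell for 4 of 20. Lrpap1, the chaperone of lipoprotein receptors, had a median of 2015 CPM and 83.9 CPM in C46, and the clathrin adaptor subunit gene Ap2m1 was steadier, at 597 to 2657 CPM. Cltc, the clathrin heavy chain, had a median of 965 CPM. Of the scavenger receptors, Cubn was in 16 cells at up to 1115 CPM, with a median of 150.3.

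No core hypoblast gene was detected in every cell, a share near the 5.03% of all records. In at least 10 cells were 9 of 15, against 24.2%. Gata6 and Gata4, which the rule used, are among those 9. Besides Dab2, Gata4 and Gata6, Pdgfra, the PDGF receptor that marks primitive endoderm, was found in 17 cells, from 0 in C15 and C33 to 1301 CPM in C80. Sox17 was found in 17 cells at a mean of 46.1 CPM, Foxa2 in 14 at 72.5, Sox7 in 8 and Hnf4a in 1. The list's median coefficient of variation was 1.34, and the list took 0.0741% to 0.361% of the reads of the 18 cells and 0.00629% in C46. Transcription factor reads are few, so a missing read in a cell is weak evidence: at the 301398 reads of the median cell, 1 read is worth 3.32 CPM.

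Parietal endoderm genes were divided between general and sporadic members. Of 14 such genes, 2 were in every cell, against 5.03% of all records, and 7 in at least 10, against 24.2%. A further 6 were in fewer cells and 1 was in none. Ctsl and Srgn, a secretory proteoglycan, were in every cell, and Srgn ranged from 209.7 CPM in C46 to 5071 in C33, with a median of 1722. Vim, vimentin, was in 18 cells with a median of 104 CPM, Thbd, or thrombomodulin, in 14, Pth1r, the parathyroid hormone receptor, in 14 and Plat in 1. Of 21 visceral endoderm genes, 13 were detected in no cell, against 43.1% of all records. In at least 10 cells were 2, Apoe and Cubn, against 24.2%. Apoe, an apolipoprotein, was found in all cells but C46, with a median of 1236 CPM. Ttr, Apoa1, Apob, Rbp4 and the fibrinogen genes had 0 reads among 5434507 reads, where a count of 0 allows up to 0.552 CPM over the pooled cells, for counting error alone. Afp had 1 read.

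Genes of growth factor signalling and of the epithelium differed in how many cells held them. None of the 26 genes of the PDGF, EGF, FGF and LIF list was in every cell, near the 5.03% of all records. In at least 10 cells were 11 of them, against 24.2%. Stat3, the transducer of LIF, was in 18 cells with a median of 129 CPM, and Il6st, the LIF co-receptor, in 11. None of 14 epithelial genes was in every cell and 6 were in at least 10, against the same shares of all records. Krt18, a simple epithelial keratin, was in 18 cells (median 362 CPM) and absent from C46. Jup, a junction plakoglobin, was in 17, and Cldn6, a claudin of embryonic epithelia, in 16.

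Proliferation genes were detected in most cells. S phase genes reached at least 10 cells for 17 of 19, against 24.2% of all records, and every cell for 1, against 5.03%. That gene was Rrm2, the ribonucleotide reductase subunit, which ranged from 199 CPM in C46 to 5649 in C23. Mcm7, of the replicative helicase, was in 17 cells and Hells, a chromatin remodeller, in 15. G2/M genes reached at least 10 cells for 17 of 21 and every cell for 1, Hmgb2, so for both lists the share in every cell was near that of all records. Ccnb1, cyclin B1, ranged from 0 in C15 to 1618 CPM in C80, with a median of 234, and was above 1000 CPM in C05, C37, C80 and C96. The G2/M list took 0.0307% of the reads of C15 and 0.832% in C37, a spread of 27.1-fold.

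Shares of reads by list also ranged from even to uneven. Ribosomal protein genes took 4.11% to 7.30% of a cell's reads (median 5.10%), a range of 1.77-fold, and nuclear oxidative phosphorylation genes 1.13% to 1.90% (1.68-fold). The range was 1.81-fold for vesicle traffic and 1.93-fold for the proteasome. It was 14.5-fold for the lysosome, where C46 was lowest at 0.407% and C25 highest at 5.92%. Ctsl alone made up much of this spread: without Ctsl, a choice made after its values were seen, the other 29 lysosomal genes took 0.371% to 1.59%, a range of 4.27-fold, or 2.78-fold when C46 was left out too. The coefficient of variation of the share was 0.16 for ribosomal, 0.15 for translation factor, 0.16 for proteasome and 0.62 for lysosomal genes, and 0.15, 0.12, 0.16 and 0.57 without C46. For the lysosomal genes without Ctsl it was 0.31.

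**Figure D5:**
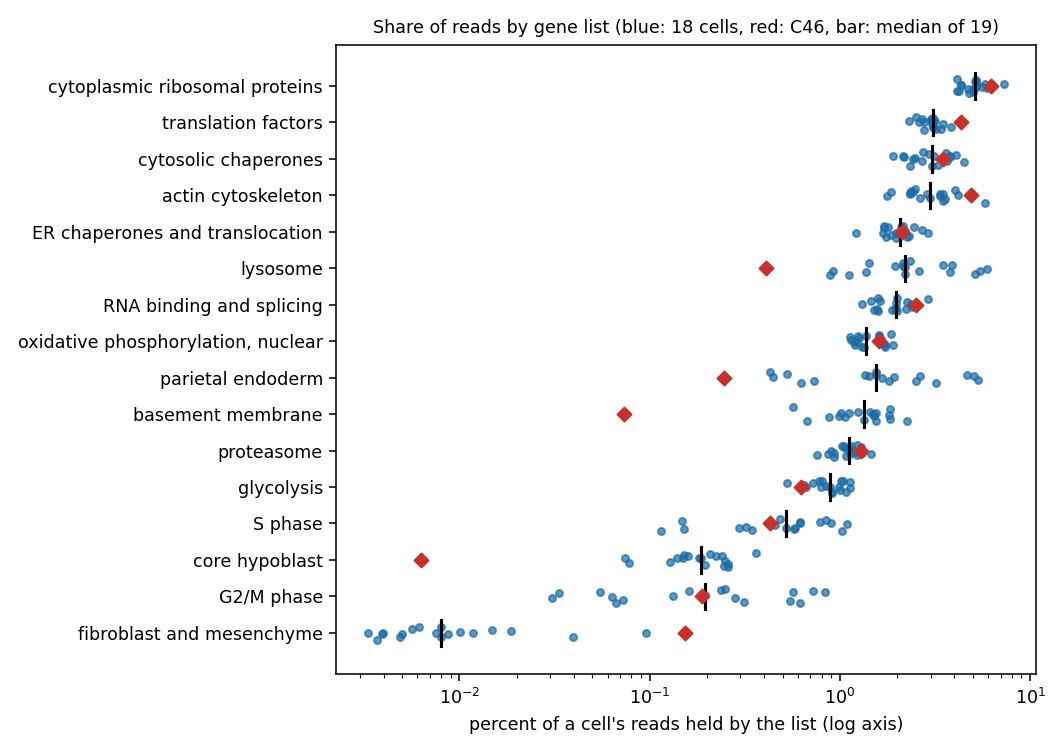
Percent of a cell's reads held by each of 16 gene lists, on a log axis, with a point for each of 18 gene-rich cells, a red diamond for C46 and a bar at the median. The lists of ribosomal, translation and proteasome genes span less than 2-fold, and C46 lies under the other cells for core hypoblast, basement membrane, parietal endoderm and lysosomal genes and above them for fibroblast genes.

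Lists of other cell types are read against the 43.1% of all records that were in no cell and the 24.2% that were in at least 10. None of the 13 blood and endothelium genes reached 10 cells and 9 were in no cell, with the haemoglobin genes, Spi1, Cd34 and Cdh5 at 0 reads. The summed list ranged from 0 to 1337 CPM, highest in C24, which held Gata1 at 899.5 CPM and Tek at 438 CPM. C24 also lacked Dab2, and the part of one in the other was not tested. Of 11 fibroblast genes, 5 were in no cell, a share near that of all records, among them Col1a1, Col3a1 and Dcn at 0 reads. Acta2, smooth muscle actin, was in all 19 cells at 29.2 to 378 CPM, but the division of reads between actin genes is uncertain. The list summed to 33.2 to 1542 CPM, highest in C46. In the other 15 cells it summed to 0 to 17096 CPM.

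For trophoblast genes 6 of 11 were in no cell, including Cdx2 and Gata3 at 0 reads, and the list was led by the keratins Krt18 and Krt8, which the epithelium also uses. Plac1, a placental gene, was in 4 cells at up to 839 CPM in C40. In the list of streak, mesoderm and definitive endoderm 10 of 11 genes were in no cell, with Tbxt and Mesp1 at 0 reads, and Mixl1 was in 3 cells. Of 11 neural genes 7 were in no cell, and Tubb3, a tubulin, was in 18 at a median of 16.7 CPM.

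Of 11 pluripotency genes, 3 were in at least 10 cells, a share near the 24.2% of all records. Each was in 18 cells: Lin28a, an RNA binding protein that blocks let-7 (median 139.7 CPM), and the factors Klf5 (194 CPM) and Klf4 (63.4 CPM). Pou5f1 was in 2 cells with 22 reads in all, Nanog in 4 with 10 and Sox2 in 1 with 2.

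Likeness between cells was measured across genes. Spearman's rho of log2(CPM + 1) was taken over 6789 records whose mean over the gene-rich cells reached 10 CPM. Between 2 gene-rich cells rho lay between 0.299 and 0.504 over 171 pairs, with a median of 0.424. Without C46 the lowest value was 0.369, over 153 pairs. No pair held identical counts. The median rho of a cell with the other members was lowest for C46, at 0.339, and 0.403 to 0.467 for the other 18. Between a member and 1 of the other 15 cells rho lay between 0.13 and 0.53 over 285 pairs, with a median of 0.294, so the ranges overlapped. C10, just outside the limit of records, had a median rho of 0.423 with the members, within their range. The records were chosen by their level in the members alone, and the other cells held fewer records with a read, which the rule fixes. A lower rho outside the group is therefore no finding. These correlations are across genes, which are not independent replicates.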

How the data were processed

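The authors deposited 1 table of whole-number read counts per RefSeq transcript record, with a column for each of 34 single cells and 1 bulk library. Per the labels' protocols, RNA was prepared in a C1 microfluidic system with 1 cell per chamber and libraries were made with Nextera XT. Per the submitters' processing notes, TopHat2 and build rn5 were used. The counter, its annotation and strand setting and the treatment of multi-mapped reads were not given in the sources used. No molecular identifiers are mentioned, and 62.1% to 70.4% of nonzero counts in the 19 cells were even, so reads are not independent molecules, and floors cover counting error only.

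Each count was divided by its library total to give CPM. Symbols came from a RefSeq gene table (16215 of 17201 records). The 986 others held 3.28% to 4.45% of a cell's reads and stayed in the totals. Promoters came from a RefSeq table, with the earliest listed entry of each gene. Detection means at least 5 CPM. Thinning drew 95359 reads per cell without replacement. No doublet caller was run and no member was removed. Python 3.11.15, pandas 2.3.3, NumPy 2.4.6 and SciPy 1.17.1 were used, and the ranking by coefficient of variation was tested on simulated data. That simulation held only a low and a high spread with independent counts, so it does not bear on the order of close ranks. With 1 sample, no test was run. The named genes were the 4 markers, the 20 records with the highest means, the 20 with the lowest coefficient of variation, and in each list the 3 highest by mean and the steadiest one. Some records that met this rule are not reported here. Others were named after their values were seen. The members and lists were chosen with earlier results of these data known.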

Additional observations from a re-analysis of the deposited data

How the results depend on the processing

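With 4500 in place of 4000 records the rule gave 12 cells in place of 19. At 50 CPM in place of 5 CPM, 378 in place of 865 records were detected in every cell, and 5 in place of 10 lists had at least 50% of their records there, since the stricter threshold can only remove records. With all records with a read in place of those whose mean reached 10 CPM, the median rho between cells was 0.508 in place of 0.424, and the cause was not tested. Under the other alternatives run, the number of shared records was 740 (thinned cells) to 964 (without C46), and 80 to 89 of the 100 most constant and 93 to 99 of the 100 leading records stayed the same. Ribosomal protein genes made up 35 to 42 of the most constant 100. The number of list members in every cell moved by over 1.5 times in 14 of 34 lists at 50 CPM, in 3 at 1 read and in 1 after thinning. No paired analysis was possible because the cells carry no replicate number that pairs them. A read in C46 was worth 10.5 CPM, which limits what can be detected there.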

Other observations

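Some of the records with the most reads were also among the most uneven, in genes that the lists did not hold. Among 124 records with a mean of at least 1000 CPM in the 19 gene-rich cells, the widest spread, after Pga5, belonged to Acta1, F3, Nqo1, Akr1c14 and Tsc22d1, named here after their values were seen. Acta1, skeletal muscle actin, ranged from 143 CPM in C43 to 14628 in C13, with a median of 1239, and its reads could not be told apart from those of other actin genes here. F3, which encodes tissue factor, the trigger of blood clotting, ranged from 0 in C46 to 12148 CPM in C26, with a median of 1356. Nqo1, a quinone reductase, ranged from 83.9 to 6459 CPM, and Akr1c14, an aldo-keto reductase, from 0 to 11084 CPM, both lowest in C46. Tsc22d1, a transcriptional regulator, ranged from 73.4 to 6779 CPM, with a median of 1064.

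Pga5 and Ctsl, both annotated as acid-active proteases, were high in many of the same cells. Over the 19 cells Spearman's rho of log2(CPM + 1) between them was 0.77 and Pearson's r was 0.64, and without C46 the values were 0.75 and 0.78. For Pga5 and F3 rho was 0.66 and r was 0.51, and C26 held the highest value of both. These values describe 19 cells that share a culture and a table.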
